A study of Mus musculus with 2 samples.

Results

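The genes described here build the machinery that copies DNA before a cell divides, measured in testes of homozygous mutant (Mili-/-) mice and of heterozygous (Mili+/-) mice, both at day 10 after birth. The group was defined by gene name from the known function of its products, with earlier results of these data known. It holds 43 genes. They cover origin recognition and licensing, the MCM helicase, the polymerases and primase, and the sliding clamp and its loader. The 43 genes also cover replication protein A, Okazaki fragment processing and nucleotide supply. Of these, 40 had a probe set annotated to them alone on a single-colour Affymetrix mouse array, out of 8251 genes named in that way in all. The remaining members were Orc3, Pole and Tyms. Each genotype was represented by 1 array of polyadenylated RNA, so no value has a replicate, no test was possible, and every difference describes these 2 arrays. The sample labels give neither the number of mice behind an array nor how the mutant allele was made, and the heterozygous mice carry 1 copy of it. MILI, the product of Piwil2, is a Piwi protein of male germ cells that binds piRNAs. Per the labels, the mutant germ cells stop in the prophase of the first meiotic division, and day 10 was chosen because dying cells were seen only later.

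DNA replication begins at origins, where the origin recognition complex, CDC6 and CDT1 load the ring-shaped MCM helicase. The kinase CDC7 and the factors CDC45 and MCM10 then turn the loaded rings into active forks, at which primase, the polymerases, the clamp PCNA and its loader RFC do the copying. Many of these genes are switched on together before S phase by E2F transcription factors. In the testis of young mice, spermatogonia divide repeatedly, the first germ cells pass through the S phase that precedes meiosis, and Sertoli cells are still dividing, so several cell types contribute to the signal of these genes. In whole testis RNA, fewer cells of a type and less RNA per cell cannot be told apart.

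The replication genes were on the whole slightly lower in Mili-/- than in Mili+/- testes. Signals were put on the log2 scale after a floor at the 20th percentile of each array, and each array was centred on its median. A gene was compared when its mean log2 signal over both arrays reached the median of that mean over all genes, and 33 of the 40 measured members passed. Their median log2 difference (Mili-/- minus Mili+/-) was -0.29, a 1.22-fold lower level, while the 4126 genes past the same filter had a median of -0.13. The centring removed a shift of 0.11 between the array medians, and bright genes as a whole lay below 0 after it. The members were thus 0.16 lower than genes past the filter in general. After centring 32 of the 33 members were lower in Mili-/- (97.0%), where 72.1% of all genes past the filter were. After loess on brightness the medians were -0.14 for the members and -0.01 for all genes, and after quantile normalization -0.15 for the members and -0.01 for all genes. With signals as deposited they were -0.18 for the members and -0.02 for all genes. The interquartile range ran from -0.42 to -0.12 for the members, against -0.30 to 0.02 for all genes past the filter.

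**Figure D1:**
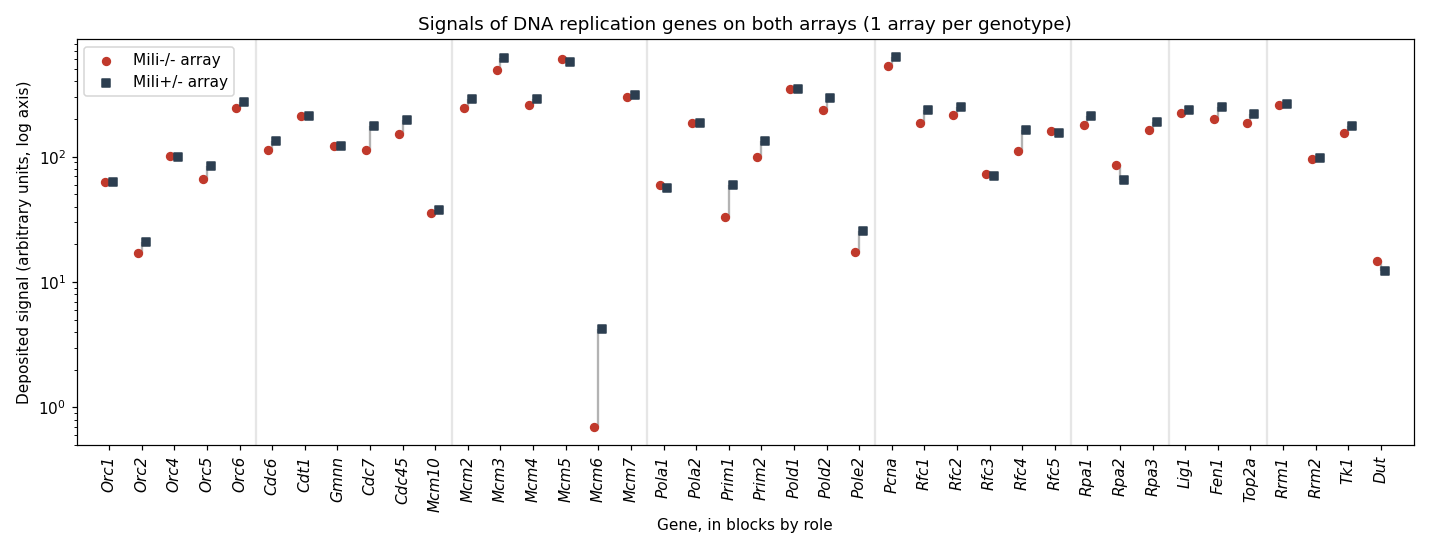
Deposited signals of the 40 measured replication genes (log axis, arbitrary units), with circles for the Mili-/- array and squares for the Mili+/- array, 1 array each; vertical lines part the roles. The signal was lower in Mili-/- for 31 genes, equal for 1 (Orc1) and higher for 8. These counts include the 7 genes under the brightness filter, with Mcm6 under the floor on both arrays. They have no share of all genes beside them and describe the plotted points only. Levels of different genes are not comparable because each probe set binds with its own strength.

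A few members stood out from this small common shift, and none reached 2-fold. Past the filter, 2 members were at least 1.5-fold lower in Mili-/-, Cdc7 and Rfc4, which is 6.06% of 33, where 3.9% of all genes past the filter were as much lower. No member was at least 1.5-fold higher, where 0.969% of all genes were. At 2-fold the shares of all genes were 0.121% lower and 0.0485% higher. These member counts are close to the background and are no result about the group. The background split itself depended on scaling, since 1.41% of genes were 1.5-fold lower and 2.08% higher after loess. A looser count asks only for the same sign under all 4 scalings (median centring, none, quantile and loess). By it 23 of the 33 members (69.7%) were lower, where 49.6% of all genes past the filter were, and 1 member, Rpa2, was higher (3.03%), where 27.9% of all genes were. The sign of the other 9 (Orc1, Orc4, Cdt1, Gmnn, Mcm5, Pola2, Pold1, Rfc3 and Rfc5) depended on the scaling.

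**Figure D2:**
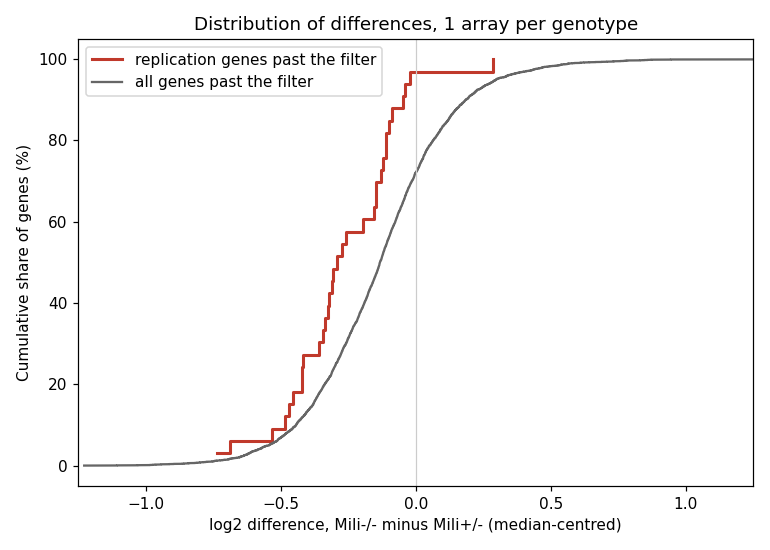
Cumulative share of genes (%) by log2 difference (Mili-/- minus Mili+/-, median-centred) for the 33 replication genes past the brightness filter and for all 4126 genes past it. The curve of the replication genes lies to the left of the other over most of its length, with medians of -0.29 and -0.13, and Rpa2 at 0.29 is the one member right of 0.

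The promoters of 6 members are printed to set the genes with the clearest differences beside others of the same machinery. They are those of Cdc7 and Rfc4, the members lowest past the filter, of Prim1, the lowest of all measured members, of Mcm3, whose 2 probe sets gave like values, and of Rpa2 and Mcm5, which were higher and nearly level. Each runs 5′ to 3′ on the gene's own strand from 250 bases before to 50 bases after a start annotated by RefSeq (GRCm38.p6). Cdc7 has a further annotated start, and its first window in the table is shown. Capitals mark an E2F-type core, read on either strand as TTCCCGC or TTCGCGC or TTGCCGC or TTGGCGC, where runs that overlap were counted separately.
Cdc7: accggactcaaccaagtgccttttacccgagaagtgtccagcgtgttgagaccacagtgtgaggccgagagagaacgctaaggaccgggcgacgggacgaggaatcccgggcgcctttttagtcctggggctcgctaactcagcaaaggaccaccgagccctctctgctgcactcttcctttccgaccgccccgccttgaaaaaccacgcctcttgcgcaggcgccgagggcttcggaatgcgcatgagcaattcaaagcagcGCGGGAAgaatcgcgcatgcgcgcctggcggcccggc
Rfc4: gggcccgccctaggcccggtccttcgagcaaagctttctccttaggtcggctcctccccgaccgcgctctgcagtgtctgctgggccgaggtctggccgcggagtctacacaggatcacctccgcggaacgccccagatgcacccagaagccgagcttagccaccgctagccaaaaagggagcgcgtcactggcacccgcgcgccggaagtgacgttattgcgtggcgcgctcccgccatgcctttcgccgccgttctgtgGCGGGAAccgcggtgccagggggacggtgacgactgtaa
Prim1: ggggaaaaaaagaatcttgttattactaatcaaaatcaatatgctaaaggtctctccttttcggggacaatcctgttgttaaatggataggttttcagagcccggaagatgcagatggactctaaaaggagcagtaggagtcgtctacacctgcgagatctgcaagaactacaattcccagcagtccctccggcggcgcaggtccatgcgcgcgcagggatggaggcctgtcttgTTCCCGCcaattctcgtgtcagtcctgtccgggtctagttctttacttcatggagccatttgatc
Mcm3: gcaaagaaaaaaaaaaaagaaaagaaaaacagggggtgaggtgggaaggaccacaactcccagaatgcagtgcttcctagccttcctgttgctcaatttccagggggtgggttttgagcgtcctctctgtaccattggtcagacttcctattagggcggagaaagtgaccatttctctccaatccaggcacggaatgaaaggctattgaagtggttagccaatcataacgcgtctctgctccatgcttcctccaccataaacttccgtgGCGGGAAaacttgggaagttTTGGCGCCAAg
Rpa2: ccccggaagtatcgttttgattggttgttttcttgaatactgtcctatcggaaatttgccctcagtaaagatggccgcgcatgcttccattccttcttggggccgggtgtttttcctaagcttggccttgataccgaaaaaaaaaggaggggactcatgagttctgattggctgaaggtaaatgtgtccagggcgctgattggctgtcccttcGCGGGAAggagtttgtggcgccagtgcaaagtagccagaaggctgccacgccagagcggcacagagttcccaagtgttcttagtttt
Mcm5: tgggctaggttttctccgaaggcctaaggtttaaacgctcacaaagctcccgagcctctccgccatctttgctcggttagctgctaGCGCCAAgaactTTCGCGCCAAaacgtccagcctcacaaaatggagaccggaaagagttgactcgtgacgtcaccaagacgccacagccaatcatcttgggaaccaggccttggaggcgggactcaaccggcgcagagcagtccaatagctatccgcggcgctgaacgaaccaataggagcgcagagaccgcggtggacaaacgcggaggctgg
These windows are chr5:106964072-106964371 (plus strand) for Cdc7, chr16:23127681-23127980 (minus strand) for Rfc4, chr10:128014965-128015264 (plus strand) for Prim1, chr1:20820263-20820562 (minus strand) for Mcm3, chr4:132768110-132768409 (plus strand) for Rpa2 and chr8:75109259-75109558 (plus strand) for Mcm5. A core occurred in all 6 windows, in those of the lower genes and in those of Rpa2 and Mcm5. These 6 do not stand for the group, where 60.5% of 38 genes held a core. Other lower members, among them Cdc45 (-0.48) and Orc5 (-0.45), held none and are not printed. Mcm3 held 3 cores, 2 of them overlapping, the first at base 20 when the annotated start counts as 1. Mcm5 held 3 cores upstream of its start, 2 of them overlapping.

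An E2F-type core was frequent in the group. Promoter windows were listed for 38 of the 43 members (not for Mcm4, Gmnn, Prim2, Rfc2 and Pole), and 23 of these 38 genes (60.5%) held at least 1 core in any of their windows, against 10.9% of 27025 genes in the table and 22.3% of 3387 genes past the brightness filter. Counted by window it was 55.3% of 47 member windows and 9.57% of 32851 in all. A CCAAT box, read on both strands, occurred in 23 of the 38 (60.5%), against 41.1% of all genes and 43.5% of those past the filter. The cell cycle element CHR, searched as TTTGAA or TTCGAA on both strands, occurred in 8 (21.1%), against 21.7% of all genes and 16.1% of those past the filter. Members past the filter with an E2F-type core had a median difference of -0.15 (18 genes), and those without one -0.33 (11 genes). The medians with and without a CCAAT box were both -0.29 (18 and 11 genes), and with and without a CHR element -0.37 (8 genes) and -0.20 (21 genes). A match describes the letters of the window only, and these arrays hold no measurement of factor binding.

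The origin recognition complex marks the sites at which replication can begin. Orc5 was its lowest measured subunit past the filter, with signals of 66.8 in Mili-/- and 84.8 in Mili+/- (log2 difference -0.45). Orc6 had 245.5 in Mili-/- and 275 in Mili+/- (-0.27). Orc1, the subunit that comes and goes with the cell cycle, had 63.2 on both arrays, which centring turned into -0.11, and Orc4 had 101 in Mili-/- and 99.0 in Mili+/- (-0.09). Orc1 and Orc4 thus lay slightly above the median of all genes past the filter. Orc2 was dim (17.1 in Mili-/- and 20.7 in Mili+/-) and fell short of the filter, and a floor at the 40th percentile turned its difference of -0.39 into 0.02. A second, dim probe set of Orc2 had 9.8 in Mili-/- and 6.7 in Mili+/-, opposite to the first.

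The factors that load and fire the helicase showed a wide spread. CDC6 and CDT1 recruit MCM rings to origins, and geminin (Gmnn) holds CDT1 back. Cdc6 was lower, with 113 in Mili-/- and 134 in Mili+/- (-0.36). Cdt1 was nearly level, with 213 in Mili-/- and 212 in Mili+/- (-0.10), and a second probe set of it, past the limit too, had 138 in Mili-/- and 139.7 in Mili+/- (-0.13). Gmnn, with 121 in Mili-/- and 122 in Mili+/- (-0.12), was level with the median of all genes. Cdc7, which encodes the kinase that phosphorylates MCM proteins to start replication, had 113 in Mili-/- and 174.5 in Mili+/-, a log2 difference of -0.74 or 1.67-fold lower. Only 51 of the 4126 genes past the filter were lower than Cdc7 by this measure. It stayed lower under every scaling, at -0.63 as deposited and -0.59 after loess. Cdc45, a helicase cofactor, had 151 in Mili-/- and 196 in Mili+/- (-0.48). Mcm10, a fork factor that fell short of the filter, had 35.7 in Mili-/- and 37.3 in Mili+/- (-0.17).

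The MCM2-7 proteins form 1 ring in equal amounts, and the differences of their transcripts spread less widely than those of the loading factors. Mcm3 was the lowest, with 496 in Mili-/- and 616 in Mili+/- (-0.42). A second Mcm3 probe set, also past the limit, had 193.5 in Mili-/- and 246 in Mili+/- (-0.46), so the 2 probe sets differed by less than the SD of 0.25 found between probe sets of the same gene (465 genes). Mcm2 had 247 in Mili-/- and 286 in Mili+/- (-0.32), and Mcm4 had 259 in Mili-/- and 287 in Mili+/- (-0.26). Mcm7, with 299 in Mili-/- and 308 in Mili+/- (-0.16), was close to the median of all genes. Mcm5 was the exception among the bright subunits, with 602 in Mili-/- and 566 in Mili+/- (-0.02 after centring, 0.09 as deposited and after loess). A dim second probe set of Mcm5 had 24.9 in Mili-/- and 19.4 in Mili+/-. The Mcm6 probe set read 0.7 in Mili-/- and 4.2 in Mili+/-, under the floor of 7.0 for Mili-/- and 6.3 for Mili+/-, so it gives no order between the arrays.

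**Figure D3:**
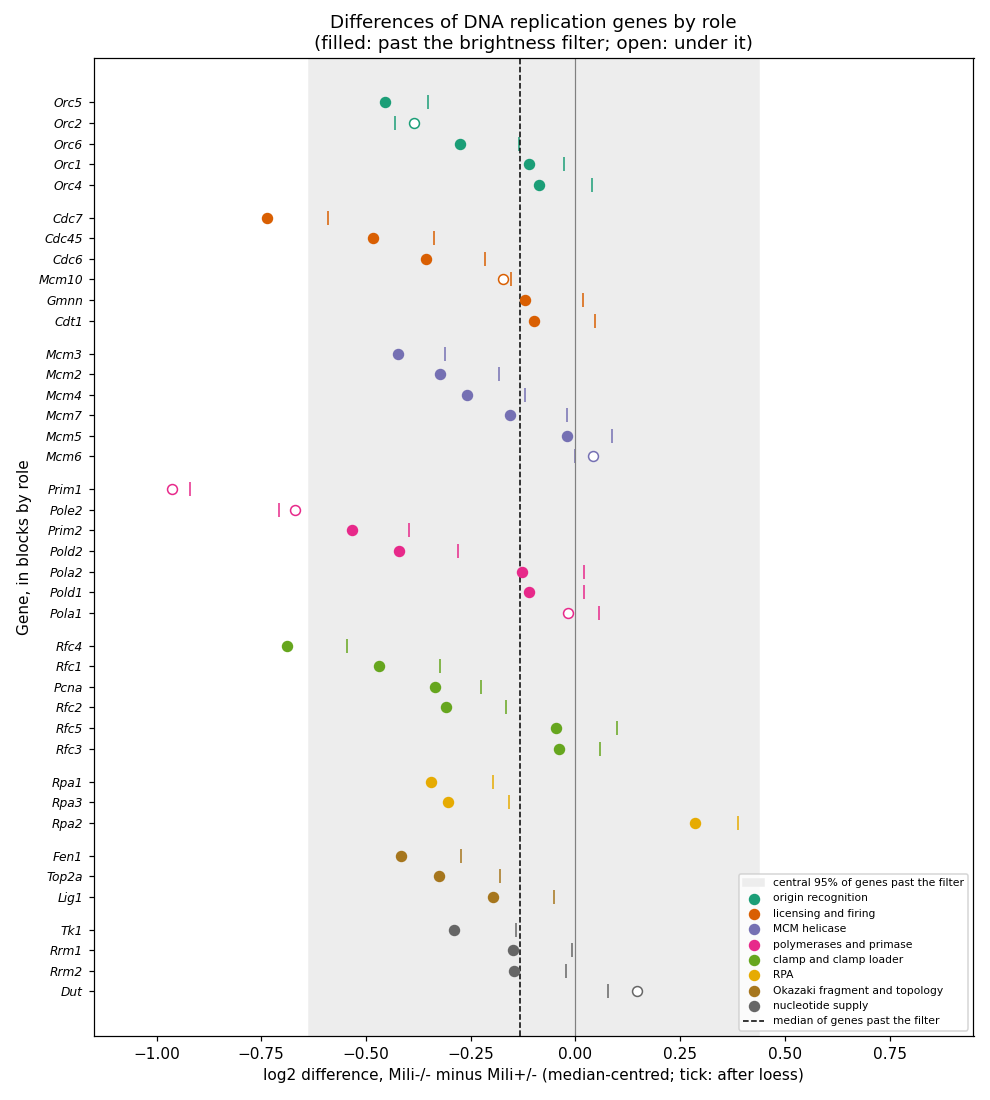
log2 differences (Mili-/- minus Mili+/-, median-centred) of the 40 measured replication genes by role, filled where past the brightness filter and open where under it; vertical ticks give each value after loess, the dashed line the median of all genes past the filter (-0.13) and the grey band their central 95% (-0.63 to 0.44). Cdc7 (-0.74) and Rfc4 (-0.69) lie left of the band among the filled points, and Prim1 (-0.96) and Pole2 (-0.67) among the open ones. The band comes from genes past the filter and sets no range for the open points, because dim genes scatter more. Without the filter 7.17% of all genes were at least 1.5-fold lower, against 3.9% past it.

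Primase, which lays the RNA primer for each new strand, was low in both of its subunits. Prim1, the catalytic subunit, had 33.0 in Mili-/- and 59.6 in Mili+/- (-0.96, 1.95-fold lower). Its mean brightness lay under the filter, and its signals cannot be checked against a second probe set. Prim2, the larger subunit, had 99.7 in Mili-/- and 134 in Mili+/- (-0.53) and passed. Primase works in 1 complex with polymerase alpha, and the polymerase subunits of that complex were nearly level. Pola2 had 184.5 in Mili-/- and 187 in Mili+/- (-0.13), and Pola1, just short of the filter, had 59.8 in Mili-/- and 56.1 in Mili+/- (-0.02). After loess Prim1 and Prim2 stood at -0.92 and -0.40 and Pola1 and Pola2 at 0.06 and 0.02. The gap between the primase and polymerase subunits was seen with each of the 4 scalings, which are no independent check of it. Centring shifts all genes of an array alike and cannot change a gap between genes. Prim1 and Pola1 were also under the filter.

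The leading and lagging strand polymerases showed the same mixture. Pold1, the catalytic subunit of polymerase delta, had 349 in Mili-/- and 349.6 in Mili+/- (-0.11). Pold2, its accessory subunit, had 235 in Mili-/- and 292 in Mili+/- (-0.42). The suffix of the Pold2 probe set stands for relaxed selection of its probes. Pole2, a subunit of polymerase epsilon, was dim, with 17.3 in Mili-/- and 25.5 in Mili+/- (-0.67), and a floor at the 40th percentile left it at -0.15. A dim second probe set of Pold1, with the same suffix, had 33.4 in Mili-/- and 13.2 in Mili+/- (1.23), unlike the bright one, and the mean over both put Pold1 at 0.56. A dim second probe set of Pola2 had 18.5 in Mili-/- and 11.9 in Mili+/- (0.53).

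The clamp PCNA rings the DNA and tethers the polymerases, and the 5 RFC subunits open it. All 6 genes passed the filter. Pcna had 532 in Mili-/- and 621 in Mili+/- (-0.33). Rfc4 was the lowest, with 110.5 in Mili-/- and 165 in Mili+/-, a difference of -0.69 or 1.61-fold lower. It was -0.58 as deposited and -0.55 after loess, both short of 1.5-fold. Only 69 of the 4126 genes past the filter were lower than Rfc4. Rfc1, the large subunit, had 185 in Mili-/- and 237 in Mili+/- (-0.47), and Rfc2 had 216 in Mili-/- and 248 in Mili+/- (-0.31). Rfc3, with 73.3 in Mili-/- and 69.8 in Mili+/- (-0.04), and Rfc5, with 162 in Mili-/- and 155 in Mili+/- (-0.05), were level, although all 5 subunits sit in 1 complex. A second, dim probe set of Rfc1 had 5.3 in Mili-/- and 15.9 in Mili+/- (-1.29), its Mili-/- signal under the floor.

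Replication protein A coats single-stranded DNA at the fork and in recombination, and its subunits went both ways. Rpa1 had 181 in Mili-/- and 212 in Mili+/- (-0.34), and Rpa3 had 164 in Mili-/- and 188 in Mili+/- (-0.31). Rpa2, the middle subunit, had 86.2 in Mili-/- and 65.5 in Mili+/- (0.29, 1.22-fold higher), and it was higher under each of the 4 scalings. Of all genes past the filter, 94.5% were lower than Rpa2 by this measure. No RPA subunit had a second probe set of its own.

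Enzymes that finish and untangle the new strands were all somewhat lower. The flap endonuclease gene Fen1 had 201 in Mili-/- and 248 in Mili+/- (-0.42). Top2a, encoding the topoisomerase that separates sister DNA in dividing cells, had 188 in Mili-/- and 218 in Mili+/- (-0.33). The ligase gene Lig1 had 224 in Mili-/- and 237 in Mili+/- (-0.20). Each of the 3 was lower under all 4 scalings, where 49.6% of all genes past the filter were. Lig1 was lower by 0.05 after loess, and its dim second probe set had 13.9 in Mili-/- and 12.6 in Mili+/- (0.03).

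Genes of nucleotide supply differed little between the arrays for ribonucleotide reductase and went both ways for the others. Rrm1 and Rrm2 encode the large and small subunits of ribonucleotide reductase, and had 258 in Mili-/- against 265 in Mili+/- (-0.15) and 96.1 in Mili-/- against 98.6 in Mili+/- (-0.15). The thymidine kinase gene Tk1 had 156 in Mili-/- and 177 in Mili+/- (-0.29), with a dim second probe set at 32.5 in Mili-/- and 23.0 in Mili+/- (0.39). The dUTPase gene Dut was dim, with 14.7 in Mili-/- and 12.3 in Mili+/- (0.15). Tyms, for thymidylate synthase, shared its probe sets with the pseudogene Tyms-ps in the annotation. They had 114 in Mili-/- and 123 in Mili+/- (-0.22) and 63.4 in Mili-/- and 70.2 in Mili+/- (-0.26), and these values cannot be assigned to Tyms alone.

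**Figure D4:**
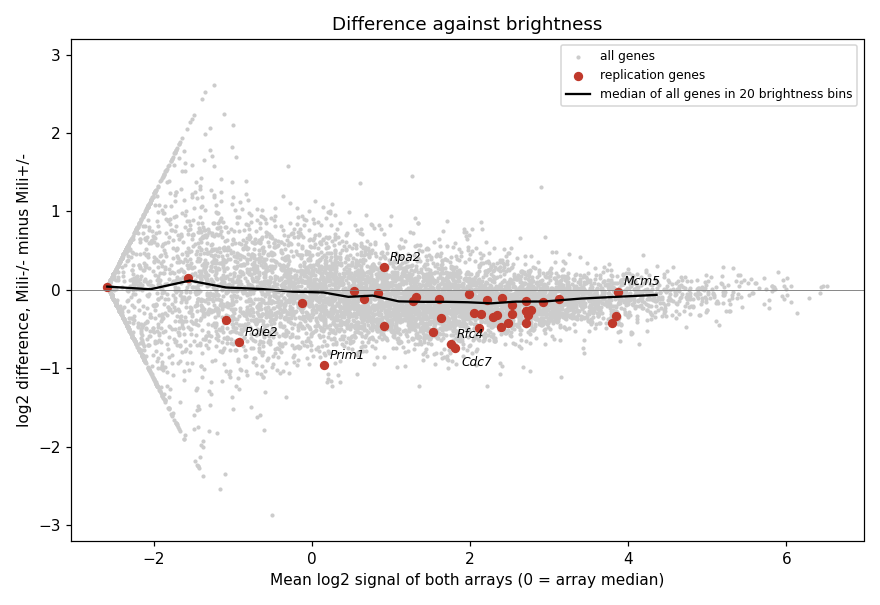
log2 difference (Mili-/- minus Mili+/-) against mean log2 signal of both arrays (0 is the array median) for all 8251 genes and for the 40 measured replication genes; the black line joins medians of all genes in 20 brightness bins. Bright genes as a whole lie below 0, most replication genes lie at or below that line, and dim genes scatter widely.

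Most second probe sets were dim and gave a weak check of the first. Of the 40 measured members, 12 had a second probe set of their own, and only those of Cdt1 and Mcm3 passed the brightness limit; both gave values like the first. Of the 12, 4 were lower in Mili-/- than in Mili+/- after centring, and the other 8, all dim, were not lower. Among these 8, those of Pold1 (1.23), Pola2 (0.53), Orc2 (0.44) and Tk1 (0.39) were opposite in sign to the first. The share over all second probe sets was not computed, so the count describes these 12 only.

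Other genes of replication past the filter had a median closer to that of all genes past it. A further list held 40 fork, chromatin assembly and nucleotide genes. Of these, 26 were measured and 16 passed the filter, with a median of -0.15 (-0.03 after loess). Over the 26 measured genes the median was -0.22, beside -0.28 for the 40 measured members and -0.06 for all 8251 genes. Of the 16, 3 were at least 1.5-fold lower (3.9% of all genes past the filter were) and 1 at least 1.5-fold higher (0.969% of all genes). Under all 4 scalings 8 were lower and 6 higher, where 49.6% and 27.9% of all genes past the filter were. Wdhd1, which links the helicase to polymerase alpha, had 117 in Mili-/- and 194 in Mili+/- (-0.84). Nasp, a histone chaperone gene, had 106 in Mili-/- and 168 in Mili+/- (-0.77). Timeless, of the fork protection complex, went the other way with 142 in Mili-/- and 72.6 in Mili+/- (0.86). The 3 brightest of the list lay on both sides of the median of all genes. Nme2, a nucleoside diphosphate kinase gene, had 1108 in Mili-/- and 1085 in Mili+/- (-0.08), Top1, for topoisomerase I, 592 in Mili-/- and 513 in Mili+/- (0.10), and the maintenance methyltransferase gene Dnmt1 408 in Mili-/- and 446.5 in Mili+/- (-0.24). A dim second probe set of Dnmt1 had 12.7 in Mili-/- and 3.4 in Mili+/- (0.90), its Mili+/- signal under the floor.

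The E2F regulators and the mitotic genes were described in the same way. Of 13 E2F and RB family genes, 8 were measured and 3 passed the filter, none past 1.5-fold by its brightest probe set. E2f5, of the repressor E2Fs, had 103 in Mili-/- and 115.5 in Mili+/- (-0.27), the E2F partner Tfdp1 281 in Mili-/- and 305 in Mili+/- (-0.23), and the retinoblastoma gene Rb1 82.7 in Mili-/- and 67.5 in Mili+/- (0.18). A second probe set of Tfdp1, also past the limit, was lower by more, with 121 in Mili-/- and 189 in Mili+/- (-0.75). Of 22 mitotic genes, 20 were measured and 16 passed, with a median of -0.20 (-0.06 after loess). Among these 16, 1 was at least 1.5-fold lower and none 1.5-fold higher, beside 3.9% and 0.969% of all genes past the filter. Under all 4 scalings 9 were lower and 5 higher, beside 49.6% and 27.9% of all genes, so these counts are close to the background. The one past 1.5-fold was the proliferation marker gene Mki67, with 129 in Mili-/- and 196 in Mili+/- (-0.71), while its dim second probe set had 28.1 in Mili-/- and 20.1 in Mili+/-. The mitotic kinase genes Aurka (64.8 in Mili-/- and 84.8 in Mili+/-, -0.50) and Bub1 (184.5 in Mili-/- and 225 in Mili+/-, -0.40) and the checkpoint gene Mad2l1 (283 in Mili-/- and 326 in Mili+/-, -0.31) were lower. The cyclin gene Ccnb2 had 484 in Mili-/- and 407 in Mili+/- (0.14), and Cdc20, which activates the anaphase complex, 398 in Mili-/- and 349.8 in Mili+/- (0.08).

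**Figure D5:**
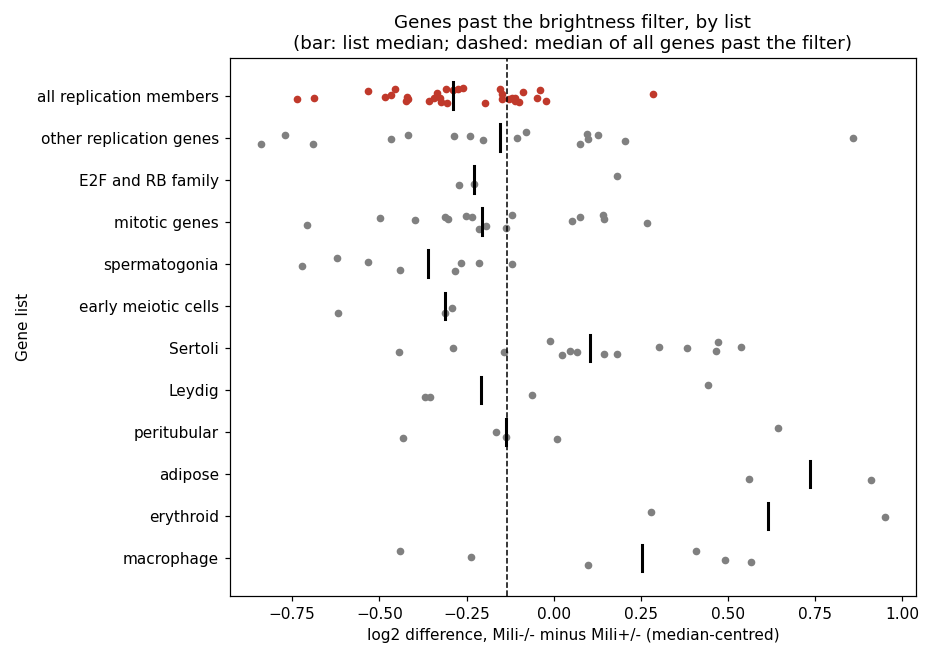
log2 differences (Mili-/- minus Mili+/-, median-centred) of genes past the brightness filter in the replication group (top), in further gene lists and in cell type marker lists; bars give list medians and the dashed line the median of all genes past the filter. The replication group (-0.29) lies to the right of the spermatogonia markers (-0.36) and the early meiotic markers (-0.31). Next to its right are the E2F and RB genes (-0.23), the Leydig markers (-0.21) and the mitotic genes (-0.20). The early meiotic median and the E2F and RB median rest on 3 genes each, and the Leydig median on 4. Over all measured genes the E2F and RB median was 0.10 (8 genes) and the Leydig median -0.06 (7 genes). The remaining lists, with the Sertoli markers (0.10) among them, lie farther right.

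Markers of the cell types in the sample differed between the arrays as well. The marker lists, like the gene lists above, were chosen with earlier results of these data known. Of 19 spermatogonia markers 13 were measured and 8 passed the filter, with a median of -0.36. Their summed signal was 3114 in Mili-/- and 3649 in Mili+/-, a ratio of 0.85. For the 40 replication genes it was 6969 in Mili-/- and 7808 in Mili+/-, a ratio of 0.89. All sums are of deposited signals over every measured gene of a list. The log2 shift of 0.11 between the array medians is still in the sums, while the medians are centred. Early meiotic markers (6 of 16 measured, 3 past the filter) had a median of -0.31 and summed to 451 in Mili-/- and 554.5 in Mili+/-. Sertoli markers (15 of 18 measured, 14 past the filter) had a median of 0.10 and summed to 9081 in Mili-/- and 7813 in Mili+/-. Leydig and peritubular markers had medians below 0 but higher sums in Mili-/-. The sums and medians differ in scale and in the genes covered, so their signs cannot be set against each other. The Leydig markers (7 of 9 measured, 4 past the filter) had a median of -0.21 and summed to 1612 in Mili-/- and 1391 in Mili+/-. The peritubular markers (7 of 7 measured, 5 past the filter) had a median of -0.14 and summed to 2176 in Mili-/- and 2089 in Mili+/-. Macrophage markers (8 of 9 listed names measured, all but Emr1, and 6 past the filter) had a median of 0.25. They summed to 624 in Mili-/- and 521 in Mili+/-. Erythroid markers (6 of 9 measured, 2 past the filter) had a median of 0.61 and summed to 2077 in Mili-/- and 1532 in Mili+/-, and adipose markers (7 of 9 measured, 2 past the filter) a median of 0.74 and 528 in Mili-/- and 281 in Mili+/-. At least 1.5-fold lower, where 3.9% of all genes past the filter were, stood 2 spermatogonia markers (Stra8 and Kit) and 1 early meiotic marker (Syce2). At least 1.5-fold higher, where 0.969% of all genes were, stood 1 peritubular (Actg2), 1 adipose (Scd1) and 1 erythroid marker (Tspo2), and the Sertoli, Leydig and macrophage lists held no gene past 1.5-fold either way. These 6 names were taken after their values were seen. None of these markers was listed at 0, and Ret, Sycp3, Cidec, Epb42 and Adgre1 were at or under the floor on both arrays. The part of cell composition in the difference of the replication genes was not tested.

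Across 12422 probe sets the log2 signals of the arrays had a Pearson correlation of 0.98, given as a description. Piwil2 had no probe set in the annotation, and the genotype labels were therefore not checked on the targeted transcript.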

How the data were processed

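Testis RNA of 1 Mili-/- and 1 Mili+/- sample was measured on 1 array each, grouped by the sample labels. The authors deposited linear signal intensity values, with no replicate arrays. Judged by the values, these appear scaled to a common level (2% trimmed means of 100.05 on both arrays). Neither software nor background correction is given in the sources used here. No detection calls came with them. Of 12488 probe sets, 66 controls were left out, and 10833 of the other 12422 had 1 gene symbol in the platform annotation. Of these, 10817 were matched to RefSeq (GRCm38.p6) by gene identifier and took its symbol.

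Signals under an array's 20th percentile were set to it, log2 was taken, and the array median was subtracted (41.5 for Mili-/- and 38.5 for Mili+/-). A gene took its brightest probe set. The brightness filter used the mean log2 signal of both arrays. Thresholds of 1.5-fold and 2-fold were used. With 1 array per genotype no p-value is given, and the number of arrays limits the precision. The SD between probe sets of a gene (0.25, 986 probe sets) covers neither animals nor hybridisations. The members and lists were chosen with earlier results of these data known. Named genes were all measured members and, from each further list, the 3 brightest and the 3 with the largest difference past the filter. The code was tested on simulated data. In 11 alternatives the scaling, floor (none or 40th percentile), filter (none, brighter array, both arrays, or 75th percentile) or probe set choice was changed. Python 3.11.15, NumPy 2.4.6, pandas 2.3.3 and statsmodels 0.14.6 were used.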

Additional observations from a re-analysis of the deposited data

Results flagged for a closer look

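A dim second probe set of Pold1, outside the main comparison because a brighter one stood for the gene, had 33.4 in Mili-/- against 13.2 in the Mili+/- control, a log2 difference of 1.23, whereas the bright one stood at -0.11. Its suffix stands for relaxed selection of its probes.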

How the results depend on the processing

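The median difference of the replication genes was below 0 under the main setting and all 11 alternatives, between -0.31 and -0.14, and it lay 0.13 to 0.23 below the median of all genes under the same setting. The count of members at least 1.5-fold lower depended on the setting. It was 1 of 33 as deposited, after quantile normalization and after loess (Cdc7 in each case). Under these settings 1.48%, 1.36% and 1.41% of all genes were as much lower. With the filter on the brighter array it was 3 of 35 (4.99% of all genes). With the mean over probe sets it was 3 of 33 (3.54%). Without a brightness filter it was 4 of 40, with Prim1 and Pole2 added (7.17%). Under a filter at the 75th percentile it was 0 of 19 (1.89%), against 2 of 33 in the report (3.9%). No member compared was at least 1.5-fold higher, or 2-fold lower or higher, under the main setting or any of the 11 alternatives. The share of all genes at least 1.5-fold higher ran from 0.291% (filter at the 75th percentile) to 6.18% (no brightness filter). At 2-fold the shares of all genes were at most 1.77% lower and 1.90% higher, both without a brightness filter. Among single genes 553 values moved by less than the SD between probe sets and 11 by more, those of Orc2 and Pole2 with the higher floor among them. Without a floor Mcm6 stood at -2.70, and the mean over probe sets put Pold1 at 0.56, Pola2 at 0.20, Tk1 at 0.05, Orc2 at 0.03, Rfc1 at -0.88, Dnmt1 at 0.33, Mki67 at -0.17 and Bub1 at 0.06, since it took in dim probe sets. No detection calls were used, so how far a dim signal lies above background is unknown. No paired analysis was possible because each genotype has 1 array.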
